A study of Mus musculus with 10 samples.

Results

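Collagens and the proteins that process them were followed as 48 genes among the 22552 of the table, 34 of them collagen chains and 14 enzymes or chaperones. The genes were chosen by name from the known collagen families, with earlier results of these same libraries in view, so their values and their calls are given as a description and no test is made of the list. RNA was sequenced from whole mouse cerebella at E13.5, mid-gestation, of mixed C57BL/6;129 strain background, in 4 libraries labelled Ezh2 deletion and 4 labelled wild type. Deletion embryos came from crosses of a floxed Ezh2 line with a Pax7-Cre line, and a Rosa-YFP allele was bred in to guide dissection. The Ezh2 protein is the enzyme of a Polycomb complex that methylates histone H3 at lysine 27, a mark of silenced genes. Cre driven by Pax7 acts only in cells that have expressed Pax7 and in their descendants, so a whole cerebellum can also hold cells with intact Ezh2. Whether the wild type embryos carried Pax7-Cre or the YFP allele is not given in the sources used here. The labels also do not say that the libraries came from separate embryos, so each SE and call measures the spread between libraries, which may be partly technical. In whole tissue, fewer cells of a type and less RNA per cell cannot be told apart. ChIP-seq samples of H3K27me3 were not analysed here.

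Collagens are triple helices of alpha chains that give the extracellular matrix its form. Fibrillar chains build rope-like fibres, type IV chains build the sheets of basement membranes, and fibril-associated chains decorate the fibres. In the endoplasmic reticulum, prolyl and lysyl hydroxylases modify the growing chains, and chaperones hold them while the helix forms. Lysyl oxidases cross-link the secreted collagens. In embryonic brain, type IV collagen lines the vessels and the pial surface, while most fibrillar collagen belongs to the meninges and other mesenchyme.

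All values are RPKM, reads scaled to gene length and library size, and differences are of log2(RPKM + 0.25), Ezh2 deletion minus wild type, with their SE. Means are given ± SD over the 4 libraries of a group. A gene is called where limma's adjusted p, over all genes tested, lies under 0.05, and only genes averaging at least 0.25 RPKM were tested. The target gene averaged 78.7 ± 4.54 RPKM over wild type libraries and 54.5 ± 6.91 over Ezh2 deletion libraries (SD, n = 4 each), or 69.3% of wild type, with the groups apart. Relative depth, from the step that 1 read makes in low genes and with wild type 1 taken as 1, ran from 1 to 1.35 in wild type and from 1.25 to 2.11 in Ezh2 deletion. Ezh2 deletion 1 to 3 held Xist at 54.1, 62.8 and 94.5 RPKM, whereas Ezh2 deletion 4 was at 0.094 and the wild type libraries at no more than 0.0712. Ddx3y, a Y-linked gene, showed the reverse, with 7.92 RPKM in Ezh2 deletion 4, between 8.31 and 9.43 in wild type and no more than 0.0219 in the other deletion libraries. Ezh2 deletion 2, the deepest library, stands apart in many of the collagens. Markers of cerebellar progenitors and neurons were present, led by En2, with a summed level of 398 to 503 RPKM in wild type and 351 to 407 in Ezh2 deletion. Of these 10 markers Pax2 rose and Skor2, Olig2 and Foxp2 fell.

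Of the 48 genes, 42 passed the level filter and 6 did not. The test called 8 of the 42 higher in Ezh2 deletion, against 2.71% of all 14279 genes tested, and 34 were not called. The 8 were Col18a1, Col14a1, Col22a1, Col27a1, P4ha2, Leprel4, Fkbp10 and Loxl2. With limma 0 were called lower, against 0.742% of all genes, and at an unadjusted p under 0.05 the count was 19 higher and 1 lower. The share of all genes at that unadjusted level is not given, so nothing is read from this or later unadjusted counts. The median log2 difference was 0.32 over the 42 genes and -0.01 over all genes tested, and 39 of the 42 differences were positive against 46.1% of all. The 4 deletion libraries lay wholly above the 4 wild type libraries for 13 of the 48 genes, against 5.2% of all genes, and wholly below for 0, against 3.69%. All genes here are the 22552 of the table, and 3284 of them were listed at 0 in every library and cannot be apart. No gene of the list was at 0 throughout, so these shares are low as a reference. Because the list was made with this contrast known, nothing is read from these shares. The count of calls depended on single libraries: it was 3 without wild type 3, 2 without wild type 4, 2 without Ezh2 deletion 3, and 5 without Ezh2 deletion 2 or without Ezh2 deletion 4. Over all genes 387 were called higher and 106 lower, and this split became 475 and 55 after rescaling without erythroid genes, Y-linked genes and Xist.

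**Figure D1:**
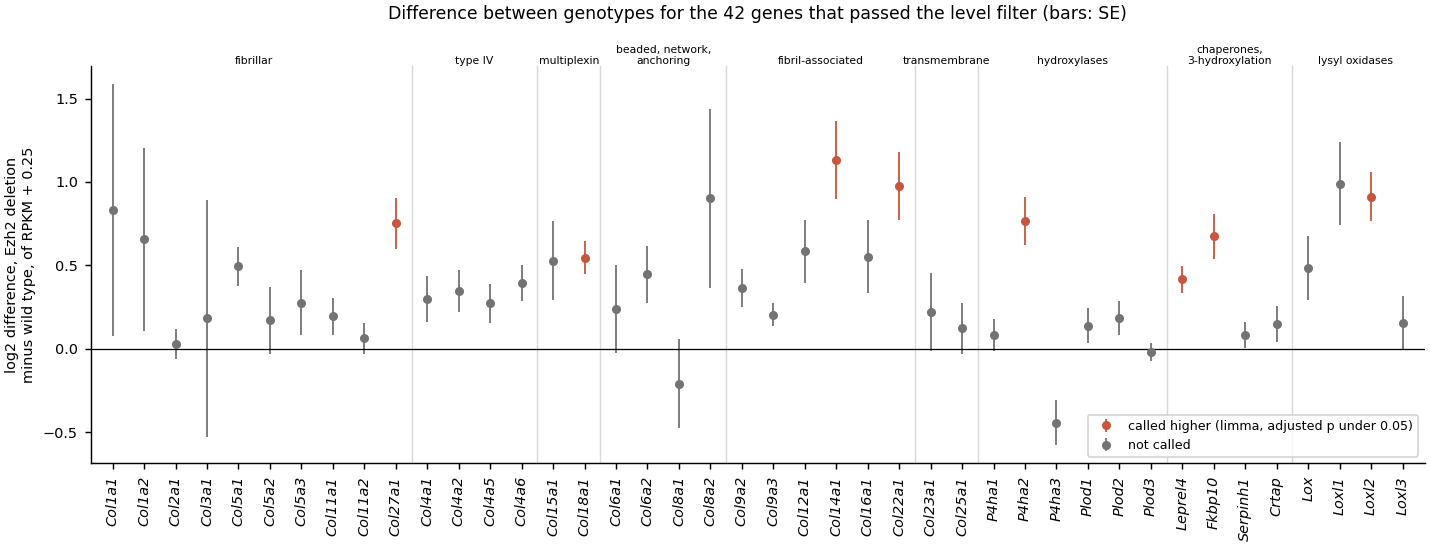
Log2 difference of RPKM + 0.25, Ezh2 deletion minus wild type, with its SE, for the 42 genes that passed the level filter, grouped by family. The 8 called genes, in red, lie above 0, and 3 of the 42 points lie under 0.

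Levels spanned several orders of magnitude. In wild type Serpinh1, the collagen-specific chaperone HSP47, came first at 78.7 ± 6.71 RPKM (SD, n = 4). Col2a1 followed at 28.1 ± 3.66 RPKM and Col4a1 at 14.9 ± 1.87. Plod3, a lysyl hydroxylase that also adds sugars to hydroxylysine, was level with Col4a1 at 14.7 ± 0.574 RPKM, and P4ha1 stood at 10.6 ± 1.02. Col9a3 at 9.22 RPKM and Col4a2 at 9.06 differed by less than the spread of Col4a2, and so did Col4a5 at 7.39 and Plod2 at 6.98 by less than theirs. Plod2, P4ha3, Leprel4, Col18a1, Col9a2 and Col5a2 followed each other between 6.98 and 6.33 RPKM by steps smaller than their spread. In all, 25 of the 48 genes averaged at least 1 RPKM in wild type, and Col4a4 was lowest, at 0.0115. Of the classical chains of skin and bone, Col3a1 came 24th, Col1a2 28th and Col1a1 39th.

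**Figure D2:**
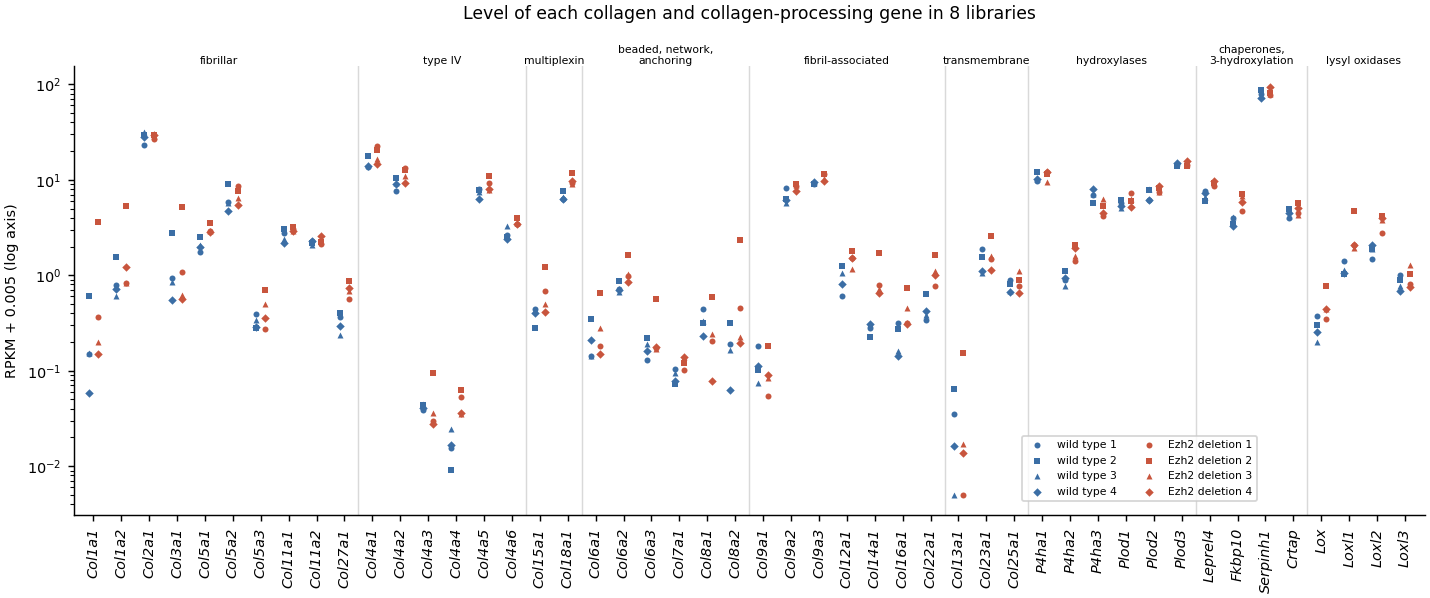
RPKM + 0.005 on a log axis for each of the 48 genes in the 4 wild type (blue) and 4 Ezh2 deletion (red) libraries, with the replicate number given by the symbol. Serpinh1 and Col2a1 are highest, Col4a3, Col4a4 and Col13a1 lowest, and the red squares of Ezh2 deletion 2 are the top point for 33 genes.

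Basement membrane collagens were among the more abundant. Col4a1 and Col4a2 encode the chains of the common type IV trimer and lie head to head on chromosome 8. RefSeq places their starts 21 bases apart on opposite strands, so the promoter windows share 78 bases, and they are shown for that shared stretch, in capitals. The windows run from 250 bases before to 50 after each start, on build GRCm38.p6, which is not the mm9 build of the deposited values.
Col4a1, chr8:11312777-11313076, minus strand: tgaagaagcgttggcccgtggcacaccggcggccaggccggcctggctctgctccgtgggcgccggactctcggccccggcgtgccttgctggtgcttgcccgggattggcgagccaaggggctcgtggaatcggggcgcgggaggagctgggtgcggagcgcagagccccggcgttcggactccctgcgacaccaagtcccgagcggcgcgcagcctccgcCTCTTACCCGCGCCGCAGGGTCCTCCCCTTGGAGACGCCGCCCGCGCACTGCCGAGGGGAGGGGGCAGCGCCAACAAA
Col4a2, chr8:11312555-11312854, plus strand: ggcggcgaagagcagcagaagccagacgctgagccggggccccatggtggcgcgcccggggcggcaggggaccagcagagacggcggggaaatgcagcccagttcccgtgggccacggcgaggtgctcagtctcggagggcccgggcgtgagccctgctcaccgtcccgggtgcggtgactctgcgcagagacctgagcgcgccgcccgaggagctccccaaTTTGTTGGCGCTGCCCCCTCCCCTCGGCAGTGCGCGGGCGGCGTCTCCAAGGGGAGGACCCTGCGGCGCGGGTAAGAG
Both windows are dense in CG, with 37 and 33 pairs, of which 9 lie in the shared stretch. Col4a1 was at 13.6, 17.7, 14.3 and 13.9 RPKM in wild type replicates 1 to 4 and at 22.3, 20.5, 16.6 and 14.6 in those of Ezh2 deletion. Col4a2 was at 7.56, 10.4, 9.29 and 8.99 RPKM in wild type replicates 1 to 4 and at 13.4, 12.8, 10.9 and 9.34 in those of Ezh2 deletion. The levels of both were highest in Ezh2 deletion 1 and 2, and the groups overlapped. Their ratio within a library stayed between 1.52 and 1.80 in all 8 libraries, although the use of strand in counting is not given and reads from the overlapping starts cannot be told apart. The log2 differences were 0.30 ± 0.14 for Col4a1 and 0.34 ± 0.13 for Col4a2, and neither was called.

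Col4a5 and Col4a6, a neighbouring pair on the X chromosome, encode chains of a trimer found in some basement membranes. Col4a5 was at 8.03, 7.80, 7.43 and 6.31 RPKM in wild type replicates 1 to 4 and at 9.32, 10.9, 7.90 and 7.92 in those of Ezh2 deletion. Col4a6 was at 2.64, 2.49, 3.25 and 2.42 RPKM in wild type replicates 1 to 4 and at 3.46, 4.01, 3.55 and 3.42 in those of Ezh2 deletion. The groups overlapped for Col4a5 and were apart for Col4a6, and neither was called (log2 differences 0.27 ± 0.12 and 0.39 ± 0.11), although Col4a6 was called without wild type 3. The deletion library with Y-linked RNA, Ezh2 deletion 4, was inside the wild type range for Col4a5 and above it for Col4a6. Col4a3 and Col4a4, chains of the mature kidney membrane, lay under the filter, at no more than 0.0887 RPKM in any library. Markers of endothelium and pericytes, cells that rest on such membranes, gave 0 calls with limma among 10 and 9 tested. At an unadjusted p under 0.05 the counts were 0 and 1. Their summed levels were 63.5 to 77.3 RPKM in wild type and 55.1 to 81.4 in Ezh2 deletion for the endothelial list, led by Cldn5, and 41.8 to 52.8 and 39.7 to 48.1 for the pericyte list, led by Rgs5.

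The multiplexins are basement membrane collagens that carry sugar chains. Col18a1, whose C-terminal part is released as endostatin, was at 6.34, 7.65, 6.58 and 6.24 RPKM in wild type replicates 1 to 4 and at 9.19, 11.9, 8.99 and 9.62 in those of Ezh2 deletion. All 4 deletion libraries lay above all wild type libraries, the highest being Ezh2 deletion 2. Col18a1 averaged 6.70 ± 0.646 RPKM in wild type and 9.92 ± 1.34 in Ezh2 deletion, and it rose by a log2 difference of 0.55 ± 0.10. This call was kept in 6 of 8 fits that left out a library and lost without wild type 3 or wild type 4. Col15a1, its relative, was at 0.434, 0.277, 0.425 and 0.393 RPKM in wild type replicates 1 to 4 and at 0.676, 1.22, 0.4999 and 0.411 in those of Ezh2 deletion and was not called (0.53 ± 0.24), with Ezh2 deletion 4 inside the wild type range.

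Col2a1, the fibrillar collagen of cartilage that is also made for a time by mouse embryonic neuroepithelium, was the most abundant collagen. It was at 23.2, 29.1, 32.0 and 28.0 RPKM in wild type replicates 1 to 4 and at 26.5, 29.3, 28.7 and 29.3 in those of Ezh2 deletion. The groups overlapped fully and the log2 difference was 0.03 ± 0.09. Its partners in cartilage fibrils were present at lower levels: Col11a1 averaged 2.62 ± 0.388 RPKM in wild type and 3.01 ± 0.132 in Ezh2 deletion and Col11a2 2.19 ± 0.101 RPKM in wild type and 2.30 ± 0.200 in Ezh2 deletion, and neither was called. Col9a2 and Col9a3, chains of the type IX collagen that coats such fibrils, averaged 6.60 ± 1.15 RPKM in wild type and 8.49 ± 0.660 in Ezh2 deletion and 9.22 ± 0.146 RPKM in wild type and 10.7 ± 0.950 in Ezh2 deletion. Col9a1, the chain that completes the type IX trimer, lay under the filter, at no more than 0.177 RPKM in any library. Col9a3 libraries were apart, with 9.10 to 9.42 RPKM in wild type and 9.64 to 11.6 in Ezh2 deletion, but the difference of 0.20 ± 0.07 was not called, nor was that of Col9a2 (0.36 ± 0.11) except without wild type 1 or with library weights. All 8 cartilage markers of the list lay under the level filter. Their summed level was 0.163 to 0.446 RPKM in wild type and 0.564 to 0.706 in Ezh2 deletion, the most abundant was Lect1 and 3110079O15Rik was listed at 0 in every library. A 0 can be a failed estimate here, since Tuba1a, an abundant gene, was also listed at 0 throughout.

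Among the other fibrillar chains, Col27a1, a chain of thin cartilage fibrils, was the one called. It was at 0.359, 0.398, 0.233 and 0.291 RPKM in wild type replicates 1 to 4 and at 0.563, 0.867, 0.675 and 0.734 in those of Ezh2 deletion, so that all deletion libraries lay above all wild type ones. The mean was 0.3202 ± 0.0730 RPKM in wild type and 0.710 ± 0.127 in Ezh2 deletion, a log2 difference of 0.75 ± 0.15. Leaving out wild type 3 or 4 or any of Ezh2 deletion 2 to 4 ended the call. Col5a1, a chain that nucleates fibrils, was apart too, at 1.74, 2.49, 2.07 and 1.99 RPKM in wild type replicates 1 to 4 and at 2.87, 3.49, 2.89 and 2.81 in those of Ezh2 deletion, and was not called (0.49 ± 0.12) except without wild type 2 or with library weights. Col5a2, its partner chain, was at 5.81, 9.07, 5.68 and 4.75 RPKM in wild type replicates 1 to 4 and at 8.60, 7.66, 6.40 and 5.49 in those of Ezh2 deletion, with wild type 2 the highest library, and was not called (0.17 ± 0.20). Col5a3 averaged 0.318 ± 0.0517 RPKM in wild type and 0.453 ± 0.187 in Ezh2 deletion and was not called.

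Type I and type III collagen, the main fibrillar collagens of mesenchyme, had their highest values in a single library. Col1a1 was at 0.144, 0.608, 0.148 and 0.0534 RPKM in wild type replicates 1 to 4 and at 0.362, 3.57, 0.194 and 0.144 in those of Ezh2 deletion. Col1a2 was at 0.793, 1.54, 0.604 and 0.717 RPKM in wild type replicates 1 to 4 and at 0.826, 5.36, 0.832 and 1.21 in those of Ezh2 deletion. Col3a1 was at 0.934, 2.78, 0.839 and 0.543 RPKM in wild type replicates 1 to 4 and at 1.08, 5.22, 0.622 and 0.557 in those of Ezh2 deletion. In each, Ezh2 deletion 2 was the highest of the 8 and wild type 2 was the highest of its group. None of the 3 was called, with log2 differences of 0.83 ± 0.75, 0.66 ± 0.55 and 0.18 ± 0.71, and the groups overlapped. With replicate 2 of both genotypes left out, the means were 0.115 RPKM in wild type and 0.233 in Ezh2 deletion for Col1a1, 0.705 and 0.956 for Col1a2, and 0.772 and 0.753 for Col3a1. Leaving out Ezh2 deletion 2 alone sets those deletion means against 0.238, 0.914 and 1.27 RPKM in wild type. Col8a2, a chain of hexagonal networks, followed the same libraries at 0.186, 0.312, 0.161 and 0.0582 RPKM in wild type replicates 1 to 4 and at 0.4504, 2.35, 0.220 and 0.191 in those of Ezh2 deletion, and its mean of 0.803 ± 1.04 RPKM in Ezh2 deletion rests on Ezh2 deletion 2. With replicate 2 of both genotypes left out, Col8a2 averaged 0.135 RPKM in wild type and 0.287 in Ezh2 deletion.

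Ezh2 deletion 2 was the highest library for 33 of the 48 genes, as it was for 16.8% of all genes with a value, and in 14 of the 48 it exceeded the next highest library by more than 1.5 times. The same library held 151.7 RPKM of Ttr, the transthyretin transcript of choroid plexus, against 16.2 in Ezh2 deletion 1 and no more than 4.995 in the others. The 7 choroid plexus markers summed to 178 RPKM in Ezh2 deletion 2, to 16.6 to 22.4 in the other deletion libraries and to 4.48 to 13.1 in wild type. The groups were thus apart in the sum, although 0 of the 6 tested markers were called with limma, also at an unadjusted p under 0.05. Without Ttr the sum was 4.02 to 8.27 RPKM in wild type and 5.79 to 26.7 in Ezh2 deletion, and the groups overlapped. In Ezh2 deletion 3 and 4 the sum was mostly Otx2, at 15.3 and 21.1 RPKM, with Ttr at 0.382 and 0.188. The 10 meningeal and mesenchymal markers, led by Igf2, summed to 38.2 RPKM in Ezh2 deletion 2, to 18.3 to 22.1 in the other deletion libraries and to 15.9 to 24.6 in wild type, with 9 of the 10 highest in Ezh2 deletion 2. Without Igf2 the sum was 2.08 to 3.38 RPKM in wild type and 3.70 to 8.93 in Ezh2 deletion, with the groups apart. In all 4 deletion libraries 4 of the 10 markers lay above wild type, against 5.2% of all genes, a share that includes genes at 0 throughout. These 4, Foxc2, Aldh1a2, Prrx1 and Foxd1, are named after their values were seen. None was at 0 in all libraries; 0 of the 5 tested were called, and 3 were higher at an unadjusted p under 0.05. The part of these cells in the collagen values was not tested. Without Ezh2 deletion 2 the median log2 difference of the tested genes was 0.18 in place of 0.32, and 5 genes were called: Col18a1, Col14a1, P4ha2 and Loxl2 of the 8, and Loxl1. Without both replicates numbered 2, chosen after seeing the data, the median was 0.31 and 4 were called, namely Col18a1, Col14a1, Col22a1 and P4ha2.

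**Figure D3:**
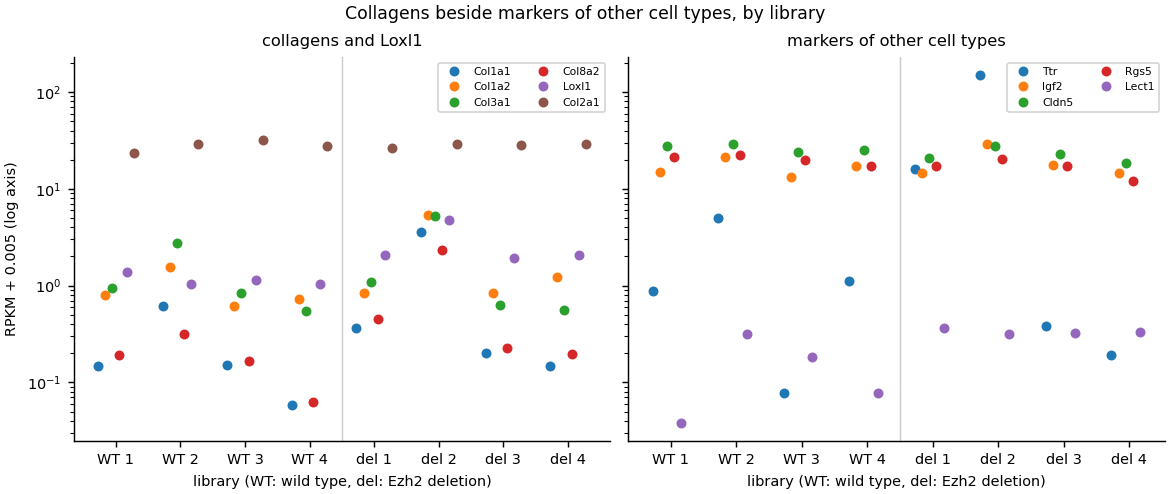
RPKM + 0.005 on a log axis in each library, for 6 genes of the list (left) and for the most abundant markers of choroid plexus (Ttr), mesenchyme (Igf2), endothelium (Cldn5), pericytes (Rgs5) and cartilage (Lect1) (right). Col1a1, Col1a2, Col3a1, Col8a2, Loxl1 and Ttr are highest in Ezh2 deletion 2, whereas Col2a1 and Cldn5 are not set apart there.

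Fibril-associated collagens held 2 of the calls. Col14a1, which binds the surface of collagen fibrils, was at 0.278, 0.221, 0.301 and 0.303 RPKM in wild type replicates 1 to 4 and at 0.786, 1.71, 0.721 and 0.639 in those of Ezh2 deletion. Even its lowest deletion library was above the highest wild type library, and Ezh2 deletion 2 stood far above the rest. Its mean was 0.276 ± 0.0380 RPKM in wild type and 0.964 ± 0.502 in Ezh2 deletion, and it rose by a log2 difference of 1.13 ± 0.24, or 0.88 ± 0.14 without Ezh2 deletion 2. The call was lost without any 1 of the wild type libraries and without Ezh2 deletion 1 or 3. Col22a1, a collagen of tissue junctions such as that of muscle and tendon, was at 0.334, 0.635, 0.379 and 0.415 RPKM in wild type replicates 1 to 4 and at 0.771, 1.61, 1.11 and 0.997 in those of Ezh2 deletion. It also had separate groups, with a mean of 0.441 ± 0.134 RPKM in wild type and 1.12 ± 0.356 in Ezh2 deletion and a rise of 0.98 ± 0.20. That call was lost without wild type 1, 3 or 4 and without Ezh2 deletion 2, 3 or 4. Col12a1, the close relative of Col14a1, was at 0.606, 1.23, 1.06 and 0.799 RPKM in wild type replicates 1 to 4 and at 1.497, 1.78, 1.16 and 1.505 in those of Ezh2 deletion, with wild type 2 and Ezh2 deletion 3 overlapping, and was not called (0.58 ± 0.19). Col16a1 averaged 0.219 ± 0.0866 RPKM in wild type and 0.449 ± 0.204 in Ezh2 deletion and was not called either (0.55 ± 0.22). The median log2 difference of the 6 tested fibril-associated chains was 0.57.

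Beaded-filament, network and anchoring collagens were scarce and gave 0 calls with limma among 4 tested, with 1 higher at an unadjusted p under 0.05. Col6a2, the most abundant chain of the type VI beaded filament, averaged 0.734 ± 0.0842 RPKM in wild type and 1.11 ± 0.336 in Ezh2 deletion, and Col6a1 0.206 ± 0.0957 RPKM in wild type and 0.309 ± 0.226 in Ezh2 deletion. Col6a3, the third chain of that filament, reached 0.553 RPKM in Ezh2 deletion 2 and no more than 0.215 elsewhere, and was not tested. Col7a1, the anchoring fibril of skin, was at no more than 0.136 RPKM. Col8a1 averaged 0.325 ± 0.0861 RPKM in wild type and 0.274 ± 0.219 in Ezh2 deletion with a log2 difference of -0.21 ± 0.27, 1 of 3 negative values of the list. Transmembrane collagens can be shed from the cell surface, and 0 of 2 tested were called, also at an unadjusted p under 0.05. Col23a1 averaged 1.40 ± 0.393 RPKM in wild type and 1.70 ± 0.620 in Ezh2 deletion and Col25a1, an amyloid-binding collagen of neurons, 0.758 ± 0.103 RPKM in wild type and 0.854 ± 0.191 in Ezh2 deletion. Col13a1 was at no more than 0.149 RPKM in any library and was listed at 0 in wild type 3 and Ezh2 deletion 1.

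The hydroxylases act on the chains before the helix closes. P4ha2, a catalytic subunit of prolyl 4-hydroxylase, was at 0.876, 1.11, 0.764 and 0.926 RPKM in wild type replicates 1 to 4 and at 1.41, 2.07, 1.59 and 1.91 in those of Ezh2 deletion. The lowest deletion library lay above the highest wild type library, and Ezh2 deletion 2 was the highest. Its mean was 0.920 ± 0.146 RPKM in wild type and 1.74 ± 0.2996 in Ezh2 deletion, and P4ha2 rose by a log2 difference of 0.76 ± 0.14. Leaving out wild type 3, wild type 4 or Ezh2 deletion 3 ended the call. P4ha1, the more abundant subunit of the same enzyme, averaged 10.6 ± 1.02 RPKM in wild type and 11.2 ± 1.24 in Ezh2 deletion and was not called (0.08 ± 0.09). P4ha3, the remaining subunit, lay the other way, at 6.91, 5.77, 7.06 and 7.96 RPKM in wild type replicates 1 to 4 and at 4.13, 5.34, 6.26 and 4.49 in those of Ezh2 deletion. The groups overlapped through wild type 2 and Ezh2 deletion 3, and the log2 difference of -0.44 ± 0.14 was not called. The lysyl hydroxylases averaged 5.56 ± 0.471 RPKM in wild type and 6.17 ± 0.856 in Ezh2 deletion for Plod1, 6.98 ± 0.987 RPKM in wild type and 7.92 ± 0.603 in Ezh2 deletion for Plod2 and 14.7 ± 0.574 RPKM in wild type and 14.5 ± 0.737 in Ezh2 deletion for Plod3, and none was called (log2 differences 0.14 ± 0.10, 0.18 ± 0.10 and -0.02 ± 0.06).

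Leprel4 and Fkbp10, neighbours on chromosome 11, were the 2 called genes of the chaperone group. Leprel4, whose current symbol is P3h4, encodes a partner in a lysyl hydroxylation complex, and was at 7.58, 6.01, 6.60 and 7.24 RPKM in wild type replicates 1 to 4 and at 8.54, 9.35, 9.32 and 9.62 in those of Ezh2 deletion. Fkbp10, the prolyl isomerase FKBP65 that acts on procollagen, was at 3.99, 3.42, 4.10 and 3.27 RPKM in wild type replicates 1 to 4 and at 4.68, 7.13, 6.74 and 5.80 in those of Ezh2 deletion. For both, the lowest deletion library exceeded the highest of wild type. The means were 6.86 ± 0.693 RPKM in wild type and 9.21 ± 0.465 in Ezh2 deletion for Leprel4 and 3.69 ± 0.413 RPKM in wild type and 6.09 ± 1.10 in Ezh2 deletion for Fkbp10, with rises of 0.42 ± 0.08 and 0.67 ± 0.13. Without Ezh2 deletion 2 neither was called, nor without Ezh2 deletion 3. Leprel4 also lost its call when wild type 2 or 3 or Ezh2 deletion 4 was left out, and Fkbp10 without wild type 2 or wild type 4. Since the use of strand is not given, any reads the neighbours share cannot be told apart. Serpinh1 averaged 78.7 ± 6.71 RPKM in wild type and 83.3 ± 7.48 in Ezh2 deletion and Crtap, a partner of prolyl 3-hydroxylase, 4.38 ± 0.419 RPKM in wild type and 4.89 ± 0.667 in Ezh2 deletion, and neither was called.

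Of the cross-linking enzymes, Loxl2 rose and 3 others were not called. Loxl2, a lysyl oxidase that cross-links type IV collagen, was at 1.46, 1.89, 1.90 and 2.09 RPKM in wild type replicates 1 to 4 and at 2.78, 4.19, 3.79 and 4.00 in those of Ezh2 deletion. Each deletion library lay above all wild type libraries, with Ezh2 deletion 1 the lowest of its group and wild type 1 the lowest of the other. The mean was 1.83 ± 0.265 RPKM in wild type and 3.69 ± 0.629 in Ezh2 deletion, with a log2 difference of 0.91 ± 0.15. It was the 1 gene of the list called in all 8 fits that left out a library, but it was not called without replicates 2 of both genotypes. Loxl1, which acts in elastic fibres, was apart as well, at 1.39, 1.03, 1.13 and 1.04 RPKM in wild type replicates 1 to 4 and at 2.05, 4.71, 1.94 and 2.07 in those of Ezh2 deletion, and was called only without Ezh2 deletion 2 or with library weights (0.99 ± 0.25 over all 8). Lox averaged 0.276 ± 0.0734 RPKM in wild type and 0.495 ± 0.185 in Ezh2 deletion and Loxl3 0.828 ± 0.138 RPKM in wild type and 0.960 ± 0.238 in Ezh2 deletion, and neither was called.

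**Figure D4:**
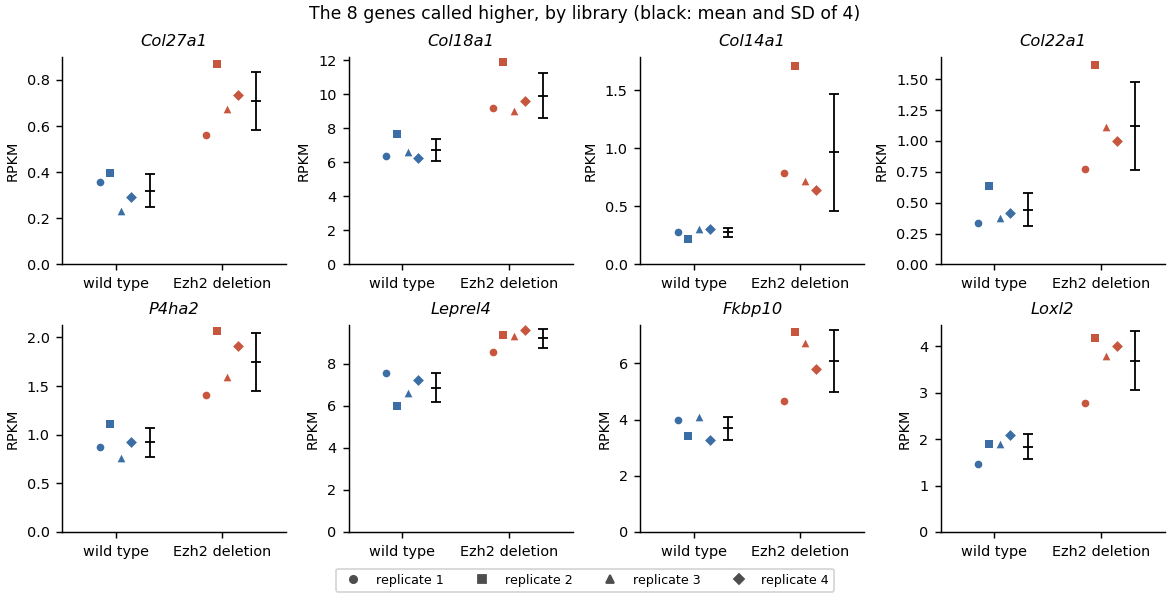
RPKM of the 8 called genes in each library, with the mean and SD of 4 in black and axes that start at 0. In each panel the 4 deletion libraries lie above the 4 wild type libraries, and for Col14a1 the Ezh2 deletion 2 value of 1.71 stands apart from the other 3.

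Sex of the embryo and genotype cannot be told apart in Ezh2 deletion 1 to 3, which held Xist, since no wild type library did. Between Ezh2 deletion 4 and the wild type libraries, all of which held Y-linked RNA, 38 of the listed genes passed the filter, with a median log2 difference of 0.19, and 9 of the 38 were negative. Col8a1 was at -0.82 ± 0.27, Col3a1 at -0.72 ± 0.73, P4ha3 at -0.59 ± 0.17 and Col23a1 at -0.22 ± 0.30. The 8 called genes had a median of 0.78, and their positive sign was fixed by their choice, since Ezh2 deletion 4 was among the libraries that called them. With 1 deletion library, no test is read from this comparison.

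Promoter windows were found in RefSeq for 33 of the 48 genes, in 36 windows of 300 bases on build GRCm38.p6. CG pairs, which read the same on both strands, had a median count of 16 per window against 13 in 21262 windows of protein-coding genes. The letters CCAAT or, on the other strand, ATTGG stood in 33.3% of the 36 windows and in 38.2% of the coding windows. Of the called genes 3 had a window. Polycomb complexes are known to favour CG-rich DNA, but a part of CG content in the calls was not tested. The windows of P4ha2 and Col27a1, the richer in CG, are shown with CG in capitals.
P4ha2, chr11:54100674-54100973, plus strand: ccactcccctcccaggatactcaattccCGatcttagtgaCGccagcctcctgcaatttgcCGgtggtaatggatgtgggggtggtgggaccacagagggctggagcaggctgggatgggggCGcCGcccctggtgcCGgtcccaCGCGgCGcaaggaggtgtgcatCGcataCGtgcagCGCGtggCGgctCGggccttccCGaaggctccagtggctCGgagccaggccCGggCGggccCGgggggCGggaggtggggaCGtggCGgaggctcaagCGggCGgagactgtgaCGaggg
Col27a1, chr4:63215162-63215461, plus strand: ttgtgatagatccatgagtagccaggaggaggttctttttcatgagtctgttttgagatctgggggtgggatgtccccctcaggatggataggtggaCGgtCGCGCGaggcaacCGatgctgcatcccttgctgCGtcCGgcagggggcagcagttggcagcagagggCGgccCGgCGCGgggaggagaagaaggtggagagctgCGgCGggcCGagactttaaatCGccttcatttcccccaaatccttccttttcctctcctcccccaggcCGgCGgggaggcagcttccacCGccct
The first holds 26 CG pairs and the other 18, and the pair of windows of Col18a1 hold 6 and 16. At least 26 pairs stood in 22.6% of all coding windows, and at least 18 in 40.3%. The count ran from 0, in Col3a1 and in a window of Col9a1, to 37, in Col4a1. Col3a1 and Col4a1 were not called, and Col9a1 was not tested. The Col3a1 window is shown as an example of the low end of that range.
Col3a1, chr1:45311288-45311587, plus strand: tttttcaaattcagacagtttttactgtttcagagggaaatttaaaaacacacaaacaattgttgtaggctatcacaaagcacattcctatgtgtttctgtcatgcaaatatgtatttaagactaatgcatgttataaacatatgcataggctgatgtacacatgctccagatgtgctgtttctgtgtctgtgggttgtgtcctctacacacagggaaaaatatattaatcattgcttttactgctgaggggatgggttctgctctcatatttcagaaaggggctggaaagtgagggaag

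**Figure D5:**
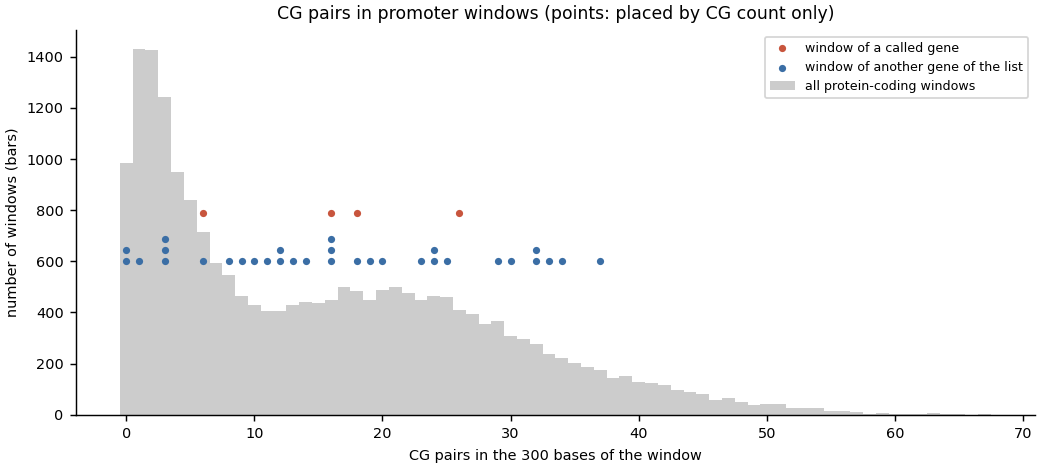
CG pairs in the 300 bases around each start, with bars for all 21262 coding windows and points for the windows of the listed genes, placed by their count alone. Windows of called genes, in red, range from 6 to 26, within the range of the others.

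The wider collagen pathway was read from 61 other genes, of which 44 passed the filter. Of these, 4 were higher (Emid2, Bmp1, Tll1 and Mmp2), against 2.71% of all genes tested, and Adamts2 was lower, against 0.742%. The median log2 difference was 0.06. This list was also made with earlier results known, so nothing is read from these shares. Mmp2, gelatinase A, which cuts denatured and type IV collagen, was at 3.15, 3.75, 2.60 and 2.85 RPKM in wild type replicates 1 to 4 and at 5.14, 6.40, 5.81 and 5.72 in those of Ezh2 deletion. It rose by 0.86 ± 0.12 (limma adjusted p = 0.0031) with the groups apart, and was called in all 8 fits that left out a library. Emid2, the type XXVI collagen Col26a1, was at 5.65, 4.499, 3.74 and 4.38 RPKM in wild type replicates 1 to 4 and at 8.34, 10.97, 8.19 and 6.13 in those of Ezh2 deletion. It rose by 0.83 ± 0.17 (limma adjusted p = 0.0317). Bmp1 and Tll1, tolloid proteases that trim procollagen at its C-terminal end, averaged 16.3 ± 0.783 RPKM in wild type and 19.1 ± 0.849 in Ezh2 deletion and 6.11 ± 0.437 RPKM in wild type and 9.01 ± 1.53 in Ezh2 deletion (limma adjusted p = 0.0491 and 0.0430). Adamts2, which trims the N-terminal end, fell, averaging 3.46 ± 0.219 RPKM in wild type and 2.51 ± 0.259 in Ezh2 deletion (limma adjusted p = 0.0414). Between Ezh2 deletion 4 and wild type alone, the log2 difference was 0.42 ± 0.20 for Emid2 and 0.17 ± 0.12 for Tll1, against 0.83 ± 0.17 and 0.53 ± 0.12 over all libraries. Those of Mmp2, Bmp1 and Adamts2 were 0.85 ± 0.20, 0.27 ± 0.09 and -0.46 ± 0.14. Mmp14, Agrn, Ppib and Ddr1, the most abundant genes of the other groups, were not called. The counts rested on single libraries too: without wild type 2, 3 or 4 or Ezh2 deletion 3 the higher count was 1, without wild type 1 or Ezh2 deletion 1 or 2 it was 2, and Adamts2 kept its call only without Ezh2 deletion 1. Among the remaining marker lists, Alpl (bone), Foxd3 (neural crest) and Epcam and Cdh1 (epithelium) were higher in Ezh2 deletion. The bone list, led by Alpl, summed to 1.52 to 2.41 RPKM in wild type and 3.09 to 5.63 in Ezh2 deletion, and the epithelial list, led by Epcam, to 1.62 to 1.93 and 4.48 to 6.71. Without Alpl the bone sum was 0.486 to 0.836 RPKM in wild type and 0.631 to 0.8925 in Ezh2 deletion, and the groups overlapped. Without Epcam the epithelial sum was 0.384 to 0.5805 RPKM in wild type and 1.18 to 1.64 in Ezh2 deletion. The neural crest list, led by Tcfap2a, summed to 50.8 to 83.6 RPKM in wild type and 43.5 to 62.4 in Ezh2 deletion, and without Tcfap2a to 0.196 to 1.27 and 1.62 to 3.35. Sums overlapped between genotypes for muscle (led by Tnnt1), erythroid (led by Hba-x) and microglial (led by C1qb) markers. The part of these cells in the collagen values was not tested.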

How the data were processed

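Per the labels' protocols, cerebella were kept in RNAlater after dissection, and their polyadenylated RNA was made into Illumina libraries. The authors deposited 1 table of RPKM values with 1 column per library. Cuffdiff, TopHat, Bowtie and SICER, and the build mm9, are listed in the submitters' processing notes. The role and version of each tool, the annotation and any use of strand were not given in the sources used here. Total depth is unknown.

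Genes averaging at least 0.25 RPKM over the 8 libraries were fitted on log2(RPKM + 0.25). The fit used limma 3.58.1, with robust and trended eBayes, under R 4.3.3 and statmod 1.5.0. Tests were two-sided, with Benjamini-Hochberg adjustment over 14279 genes and a threshold of 0.05. This scale understates the change of low genes. The fit was tested on simulated data, drawn as independent normal values with each gene's own spread. Changes of 1.5, 2 and 4 times on this scale were called in 53.7%, 80.6% and 89.4% of the genes given them. Of the calls, 2.61% were false. A gene that was not called can therefore still differ. Of the table's gene names, 98.96% matched RefSeq of GRCm38.p6, which gave names, neighbours and promoter windows, and 9 listed genes were found under an older name.

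The members, the pathway and marker lists and the tests were chosen with earlier results of these data known. The text names every member, each called pathway gene, the most abundant gene of each pathway and marker list, and called markers. Replicate numbers were not taken as pairs in the main fit. Deviations of same-numbered libraries correlated at 0.00336, 0.0867, 0.0633 and 0.0521, and those of differently numbered libraries at -0.23 to 0.195. Shared handling of same-numbered libraries was not tested. Alternatives covered the pseudocount, the filter, scaling, the variance model, weights, a replicate block, each library left out, libraries with Y-linked RNA and the threshold.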

Additional observations from a re-analysis of the deposited data

Results flagged for a closer look

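In 96 groups of 4 libraries, 1 per gene of the list and genotype, 12 held a library whose gap to its nearest neighbour exceeded Dixon's 95% critical share of the group's range. For independent, normal values chance flags about 1 in 20 groups. These groups hold raw RPKM of the same libraries, so the 12 are not set against that rate. High values in Ezh2 deletion 2 made up 10 of the 12. These were Col1a1 at 3.57 RPKM, Col1a2 at 5.36, Col3a1 at 5.22, Col5a1 at 3.49, Col8a2 at 2.35, Col14a1 at 1.71 and Loxl1 at 4.71. Under the level filter, Col6a3 at 0.553 RPKM, Col13a1 at 0.149 and Col4a3 at 0.0887 stood apart in the same library. The other 2 were high values in wild type 2, of Col1a1 at 0.608 RPKM and of Col4a1 at 17.7. Of these 11 genes, Col14a1 was called higher, and it was also called without Ezh2 deletion 2.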

How the results depend on the processing

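The counts of called genes moved by over 1.5 times under these settings, and the cause was not tested. Genes of the collagen list called higher, 8 in all, were 5 with a mean of at least 1 RPKM, 4 with the replicate block, 0 with Y-linked libraries alone, 1 at an adjusted p under 0.01, 4 without replicate 2 of both genotypes, and 2 to 7 with each library left out. Those called lower stayed at 0 to 0 with each library left out. Among all genes, the 387 higher were 195 with Y-linked libraries alone, 173 at 0.01, 230 without both replicates 2 and 223 to 352 with each library left out. The 106 lower were 55 with erythroid, Y-linked genes and Xist removed, 181 with library weights, 53 with the replicate block, 28 at 0.01, 57 without both replicates 2 and 40 to 100 with each library left out. Of the pathway genes, the 4 higher were 2 with no filter, 1 without the trend and robust options together, 0 with Y-linked libraries alone, 1 at 0.01, 1 without both replicates 2 and 1 to 3 with each library left out. The 1 lower was 0 with erythroid, Y-linked genes and Xist removed, 0 with the block, 3 with Y-linked libraries alone, 0 at 0.01, 0 without both replicates 2 and 0 to 1 with each library left out. The block kept Col18a1, Col22a1, P4ha2 and Loxl2. Of 856 log2 differences of listed genes over these settings, 0 of those called changed sign, 836 moved by less than the spread between libraries and 20 by more. The fits at an adjusted p under 0.01, without the trend and robust options, and with the block leave each difference unchanged by construction. In the 8 called genes every deletion library lay above every wild type library, so leaving libraries out could not change the sign. The spread includes Ezh2 deletion 2. Without that library Col3a1 went from 0.18 to -0.44 and Col1a2 from 0.66 to 0.098, both within the spread.

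Total depth is unknown, so no counting interval can be given for the low chains. Deletion libraries were in general deeper. Antisense and overlapping genes are uncertain. Genotype and the presence of Xist cannot be told apart in 3 of 4 deletion libraries.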
